A study of Mus musculus with 4 samples.

Results

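Neutrophils were followed here in single-cell RNA libraries of the stromal vascular fraction (the non-adipocyte cells freed by collagenase digestion) of inguinal white adipose tissue, the fat pad that holds the mouse mammary gland. The mice were C57BL/6, 8 weeks of age, and were kept for 24 h at 4 °C (cold, 2 libraries) or at room temperature (2 libraries). All 4 libraries came from mice of the same strain and age, with no engineered allele named. The sources used here name neither the number of animals behind a library nor their sex, so every p-value measures the spread between libraries, which may be technical. A cell barcode was taken as a neutrophil when it had at least 500 genes, under 15% mitochondrial UMIs (unique molecular identifiers, each a counted transcript molecule), at least 20 UMIs of S100a8 and S100a9 together, at least 2 UMIs of Csf3r, Cxcr2 and Retnlg together, and none of Cd3e, Cd3d, Cd3g or Cd79a. This gave 80 of the 15721 barcodes that passed the gene and mitochondrial filters.

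Neutrophils are short-lived granulocytes that leave the bone marrow, circulate and enter tissues within hours of a challenge. G-CSF, read through the receptor Csf3r, drives their production, while the chemokine receptors Cxcr2 and Cxcr4 set whether they leave or are kept in the marrow. They carry granules that are filled in sequence during maturation (azurophil granules first, then specific and gelatinase granules), and in adipose tissue they are known as early arrivals after a change of diet. Mature neutrophils hold little RNA compared with other cells.

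The cold libraries held 36 and 15 neutrophils, and those at room temperature held 18 and 11. As a share of filtered cells, this was 0.887% (exact Clopper-Pearson 95% interval 0.622 to 1.23) in cold replicate 1 and 0.493% (0.276 to 0.811) in cold replicate 2. At room temperature it was 0.329% (0.195 to 0.520) and 0.350% (0.175 to 0.625). Both cold libraries lay above both room-temperature libraries, but the interval of cold replicate 2 overlapped those at room temperature. The mean was 0.690% ± 0.279 (SD, n = 2) in cold and 0.339% ± 0.0148 (SD, n = 2) at room temperature, a ratio of 2.03. The exact two-sided permutation test gave p = 0.333, the smallest value that 2 libraries against 2 allow, so the design could not separate the groups. Without cold replicate 1 the ratio was 1.45. The intervals cover counting error only.

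The 4 libraries held 3871 to 6339 barcodes and 35198164 to 55160902 UMIs. Pairs of libraries shared 5 to 10 barcode sequences. Filtered cells had a median of 6851 to 7648 UMIs and 4.02% to 4.69% mitochondrial UMIs. Neutrophils were far shallower, with a median of 1627, 1537, 1189 and 1651 UMIs (cold replicates 1 and 2, then room-temperature replicates 1 and 2, an order kept below). Their median mitochondrial share was 0.562%, 0.567%, 0.892% and 0.596%, well under that of the filtered cells of each library. At the threshold, 4 neutrophils had 20 to 29 UMIs of S100a8 and S100a9, and 4 barcodes just outside had 10 to 19. Another 10 filtered barcodes had at least 20 such UMIs but missed the rule, 8 of them because of Cd3 or Cd79a UMIs.

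Not all of the 80 barcodes carried neutrophil transcripts alone. In 9 of them (2, 2, 3 and 2 per library) at least 5 UMIs came from C1qa, C1qb and C1qc (macrophage complement), Col1a2, Col3a1 and Dcn (fibroblast matrix) or Krt8, Krt18 and Epcam (epithelium). These 9 held 48.9%, 22.8%, 68.7% and 48.0% of all neutrophil UMIs of their library. The deepest, in cold replicate 1, had 51170 UMIs, 46.1% of that library's neutrophil sum, and 801 UMIs of the luminal epithelial marker list. At room temperature, a barcode of 24649 UMIs in replicate 1 carried 302 UMIs of that list, and barcodes of 14460 and 15322 UMIs carried 537 and 531 UMIs of the fibroblast list. Only 1 of the 80 was called a doublet by a score against simulated doublets. Without the 9, a set of 71 neutrophils remained (34, 13, 15 and 9), with at most 4 such UMIs each and sums of 56754, 21774, 20049 and 18617 UMIs. This split was chosen after the values were seen, and results on cold are given for the 80 and for the 71. One of the 71, in room-temperature replicate 2, had 6412 UMIs, with 28 UMIs of the macrophage list and 22 of the monocyte list.

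**Figure D1:**
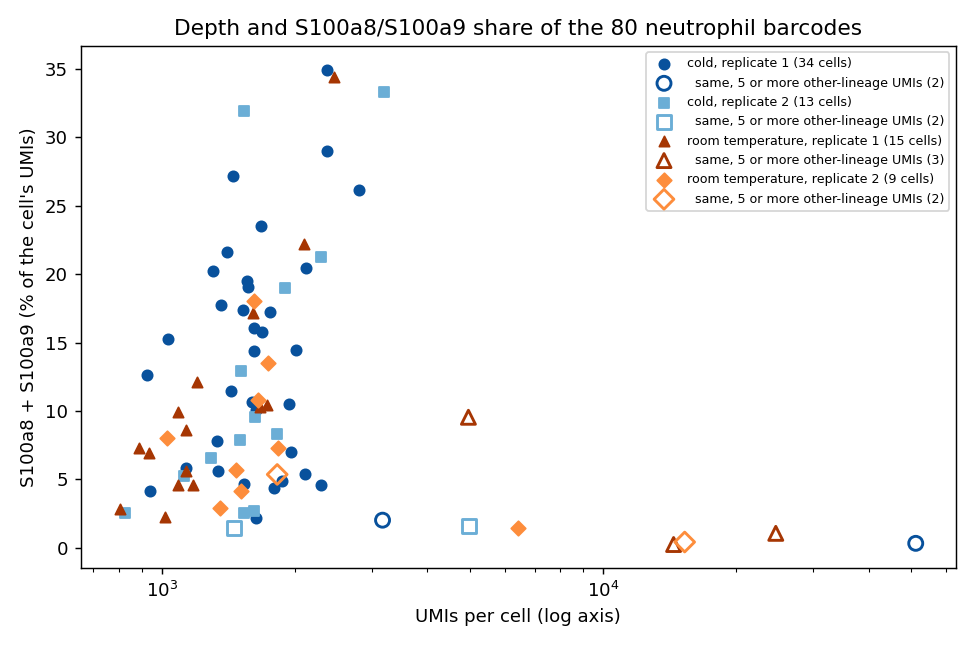
UMIs per cell (log axis) against the share of UMIs from S100a8 and S100a9 (percent) for the 80 neutrophil barcodes, by library; open symbols mark the 9 barcodes with at least 5 UMIs of other-lineage genes. Most filled symbols lie between 806 and 3190 UMIs, 1 filled symbol lies at 6412, and 4 open symbols lie at 14460 UMIs or more with at most 1.06% of S100a8 and S100a9.

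The genes of the rule are given as a description, since they chose the cells. S100a9 and S100a8 encode the subunits of calprotectin, the abundant cytosolic protein of neutrophils. In the 71 neutrophils S100a9 had 82510, 80370, 73820 and 36310 CPM (counts per 1000000, taken over the summed neutrophil UMIs of a library), against a mean of 8.45 CPM in all other filtered cells. S100a8 had 65550, 69900, 57810 and 28310 CPM, against 7.83. Those means rest largely on cold replicate 2, where the other cells had 48.9 CPM of both genes together, against 4.03 to 6.87 CPM in the other 3 libraries. Room-temperature replicate 2 stood below the other 3 libraries in both. Retnlg, a resistin-like secreted protein of granulocytes, had 10620, 18370, 15410 and 3975 CPM. Csf3r had 2766, 2572, 2644 and 1719 CPM and was seen in 97.2% of the 71 cells. Cxcr2, the receptor for the neutrophil-attracting CXC chemokines, had 1392, 1148, 1047 and 645 CPM and was seen in 80.3%. Among other filtered cells, 0.894% to 2.73% had a UMI of S100a8 or S100a9, which gives the background in this deeper population.

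Genes outside the rule described the same cells. The 20 genes of highest ratio to other filtered cells were Stfa2l1, Mmp8, Wfdc21, Trem1, Acod1, Hdc, G0s2, Clec4d, Cd300lf, Osm, Hcar2, Slc7a11, Slpi, Rdh12, Mcemp1, Ifitm1, Trim30b, Slc16a3, Pglyrp1 and Clec4e. Over the 80 barcodes their ratios ran from 69.9 for Clec4e to 2092 for Stfa2l1, a stefin of the cysteine protease inhibitors. Since the cells were chosen by measured values, these ratios are a description with no test. The genes of highest level outside the rule included the broadly expressed Malat1, Tmsb4x, Fth1, S100a6 and Actb, and Srgn, which encodes the granule proteoglycan serglycin.

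**Figure D2:**
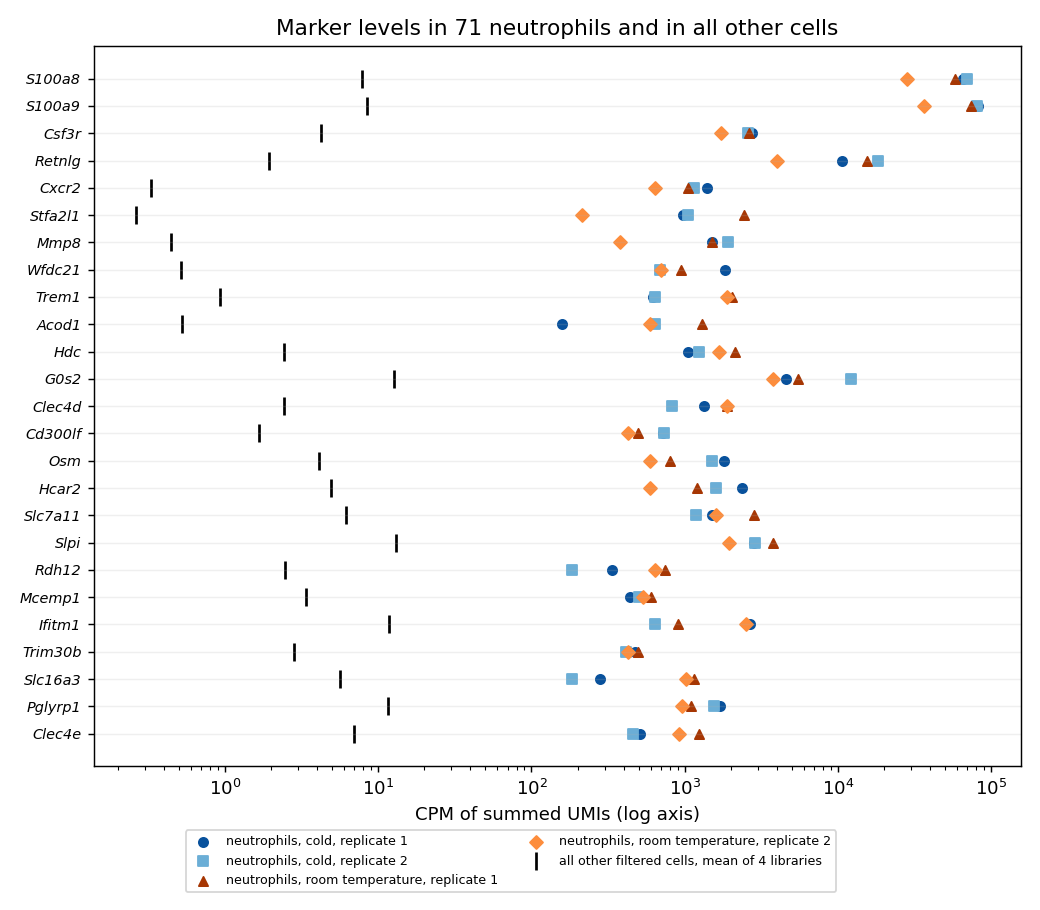
Level (CPM of summed UMIs, log axis) of the 5 rule genes and the 20 genes of highest ratio in the 71 neutrophils of each library (coloured symbols) and in all other filtered cells (black bars). Every neutrophil symbol lies to the right of the black bar of its gene, and room-temperature replicate 2 is lowest for S100a8, S100a9, Retnlg and Mmp8.

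Genes of the first granules were at or near 0, while some genes of later granules were present in all libraries. Of the azurophil genes, Mpo (myeloperoxidase), Elane (neutrophil elastase), Ctsg (cathepsin G) and Ms4a3 had 0 UMIs in the 71 cells, which allows up to 52.9 to 161 CPM in a library at a limit of 3 UMIs. Prtn3 (proteinase 3) had 2 UMIs in all. Among specific granule genes, Lcn2, which encodes an iron-siderophore-binding lipocalin, had 2854, 4684, 2245 and 322 CPM. Hp (haptoglobin) had 2537, 1699, 1746 and 1450 CPM and was seen in 88.7% of the cells. Pglyrp1, a peptidoglycan-binding protein, had 1709, 1561, 1097 and 967 CPM. Of other later granule genes, grouped here as the gelatinase granule list, the collagenase Mmp8 had 1515, 1929, 1496 and 376 CPM. The gelatinase Mmp9 had 1040, 1194, 2195 and 1074 CPM. Arg1 had 0 UMIs. Of the 15 genes of the cell cycle list, Mki67, Cdk1, Ccnb1 and Ccnb2 had 0 UMIs. Only Hmgb2 was high enough for the test of cold against room temperature below, where it had a log2 fold change of 0.75 and did not pass.

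A few cells stood apart in the specific granule genes. Ngp (neutrophilic granule protein) had 138 UMIs in the 71 cells, 136 of them in cold replicate 2 and up to 88 in 1 cell. Camp, the cathelicidin gene, had 73 UMIs, all in 2 cells of cold replicate 2. Ltf (lactoferrin) had 49 UMIs, in 2 cells of the same library. In the other 3 libraries the 71-cell sums held 0 UMIs of Camp and Ltf, and Ngp had 2 UMIs in cold replicate 1.

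Receptors and secreted factors of mature neutrophils were present in all libraries. Il1b, the interleukin-1β cytokine, had 6889, 5465, 9277 and 10150 CPM and was seen in 90.1% of the 71 cells, against 110 CPM in other filtered cells. Cxcl2, a ligand of Cxcr2, had 8140, 8359, 5736 and 2363 CPM. Il1r2, the interleukin-1 decoy receptor, had 1321, 2067, 1746 and 2471 CPM. Il6, Il10 and Il23a had 0 UMIs. Ccr1, a receptor of inflammatory CC chemokines, had 1233, 964, 1397 and 1074 CPM. Hcar2, the receptor of hydroxybutyrate and nicotinate, had 2379, 1607, 1197 and 591 CPM and 4.92 CPM in other cells. Of the NADPH oxidase genes, which make the oxidative burst, the membrane subunit Cyba had 1128, 1286, 1197 and 967 CPM. Its partner Cybb had only 11 UMIs. Mcl1, the survival factor on which neutrophils depend, had 3242, 3307, 3092 and 2739 CPM, a narrow spread over the libraries.

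Within the 71 cells, S100a8 and S100a9 together made up 1.48% to 35.0% of a cell's UMIs, with a median of 10.3%. The levels of S100a8 and S100a9 ranked the cells alike, with a Spearman correlation of 0.909 over the 71 cells and 0.767 to 0.945 within libraries. S100a8 correlated with Retnlg at 0.620 and with Mmp8 at 0.511. Within libraries the Mmp8 value ran from 0.243 to 0.861. These are descriptions over cells that share libraries and depth, with no test.

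The choice of cells fixed several markers of other lineages. The rule set the Cd3 genes to 0, and the split removed barcodes by C1q, collagen, Dcn, keratin and Epcam UMIs. The 9 barcodes set aside held 1132 of the 1174 luminal and 1462 of the 1492 fibroblast list UMIs of the 80. Low macrophage, fibroblast and luminal sums in the 71 are therefore no independent finding. Outside the genes of the rule, Trac, Cd4 and Lat of the T cell markers were at 0, while Trbc2 and Cd8a together had 5 UMIs in 5 cells. The B cell list had 21 UMIs in 14 cells, with up to 6 in 1 cell. The natural killer and innate lymphoid list had 5 UMIs in 4 cells and the dendritic list 8 in 6 cells. The basal epithelial list had 10 UMIs in 10 cells and the endothelial list 5 in 5 cells. Of the eosinophil list only Siglecf was seen, with 2 UMIs, and Ccr3, Epx, Prg2, Ear1, Ear6 and Il5ra were at 0. Mast cell and basophil markers and Schwann cell markers were at 0. The summed monocyte list had 440, 1240, 598 and 1826 CPM, and the macrophage list 634, 91.8, 648 and 1665 CPM, against 182300, 200800, 176000 and 86640 CPM for the neutrophil list. The luminal epithelial list had 493, 367, 200 and 107 CPM and the fibroblast list 247, 91.8, 648 and 53.7 CPM. Room-temperature replicate 2 thus had the lowest neutrophil sum and the highest monocyte and macrophage sums. Most of its monocyte and macrophage list UMIs came from 1 cell, that of 6412 UMIs in a library sum of 18617. This cell held 28 of the 82 macrophage and 22 of the 98 monocyte list UMIs of all 71 cells. The part that these sums and this cell play in the differences below was not tested.

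For cold against room temperature, UMIs were summed per library and compared by edgeR (quasi-likelihood F-test), and p-values were adjusted by Benjamini-Hochberg over all genes tested. Each SE given with a fold change is the size of that fold change divided by the square root of its F value. It is derived from the test and is no separate measure of spread. In the 80 barcodes 0 of 795 genes passed an adjusted p of 0.05 (0.0%), and 85 had an unadjusted p under 0.05 (10.7%). The smallest adjusted p was 0.187. DESeq2 called 6 genes, Klf2, Dusp1, Ltf, Col3a1 and Postn among them. Values that did not pass the edgeR test follow. Klf2, a Krüppel-like factor that keeps leukocytes quiescent, had 2232, 5144, 296 and 559 CPM, a log2 fold change of 3.13 (SE 0.65, edgeR adjusted p = 0.209). Dusp1, a phosphatase that turns off MAP kinases, had 5068, 6173, 998 and 1370 CPM. Cxcr4 had 459, 780, 78.0 and 83.9 CPM, and the haem oxygenase gene Hmox1 had 405, 461, 15.6 and 55.9 CPM. Klf6, Cxcl2 and Hcar2 followed, at 2.16, 1.86 and 1.91 on the log2 scale (edgeR adjusted p = 0.318 each). Genes were named here only where the groups did not overlap, so that both cold libraries lie above both others in each of these 7 is fixed by the choice; 20.2% of all tested genes lay so.

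The genes of smallest p on the lower side were mostly matrix genes of fibroblasts. Col3a1 had 1, 5, 328 and 258 UMIs in the 80 barcodes, up to 257 of them in 1 barcode. Postn, Col5a2, Htra1, Lum, Col5a1 and Col6a2 also lay lower in both cold libraries, at fold changes of −4.38 to −7.79 on the log2 scale and edgeR adjusted p = 0.187. The chaperone gene Hsp90b1 had 90.0, 106, 593 and 475 CPM. In the 71 cells Col3a1 had 1, 0, 6 and 0 UMIs, and Col6a2 had none. Col3a1 was among the genes used to set the mixed barcodes aside, so its low count there was fixed by the split. Ltf, on the upper side, had 24, 49, 0 and 0 UMIs in 3 of the 80 barcodes. In the 71 cells cold replicate 1 had 0, so its 24 came from a barcode set aside as mixed. The 49 of cold replicate 2 came from the few cells described above.

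In the 71 neutrophils 10 of 353 genes passed (2.83%), 8 higher in cold (2.27%) and 2 lower (0.567%), and 59 had an unadjusted p under 0.05 (16.7%). The genes that rose included Klf2, Fos, Dusp1, Jun, Zfp36, Hmox1 and Lrg1, and those that fell were Ifrd1 and Psap. The 80 barcodes gave none of these calls under the same test. There the log2 fold changes were 2.27 for Dusp1, 1.68 for Fos, 2.22 for Zfp36, 3.73 for Hmox1, 2.77 for Lrg1, −2.78 for Ifrd1 and −1.26 for Psap, all in the direction of the 71 cells (edgeR adjusted p = 0.187 to 0.455). Jun differed most between the sets, at 0.85 (edgeR adjusted p = 0.828) in the 80. On GRCm38 (GENCODE vM21), Klf2 lies at chr8:72319033-72321656, Fos at chr12:85473890-85477273, Dusp1 at chr17:26505590-26562128, Jun at chr4:95049034-95052222 and Zfp36 at chr7:28376784-28380253. Groups did not overlap for 21.3% of all tested genes on the higher side and for 25.6% on the lower side.

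Klf2 had 4334 and 4271 CPM in cold and 549 and 698 CPM at room temperature. The cold libraries were close to each other and well above the others, with means of 4303 ± 44.8 and 623 ± 106 CPM (SD, n = 2 each). The log2 fold change was 2.85 (SE 0.36, edgeR adjusted p = 0.00249). By cells, 32 of 34 (94.1%, exact interval 80.3 to 99.3) and 12 of 13 (92.3%, 64.0 to 99.8) had a Klf2 UMI in cold, against 5 of 15 (33.3%, 11.8 to 61.6) and 5 of 9 (55.6%, 21.2 to 86.3) at room temperature. Expected at 800 UMIs per cell, the shares were 83.6%, 82.7%, 26.8% and 33.5%, so the order of the groups was the same at equal depth. In macrophage-gated cells of the same libraries (C1q-rich cells) Klf2 had 876, 1050, 601 and 641 CPM.

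The AP-1 genes Fos and Jun, transcription factor subunits induced within minutes of a stimulus, rose as well. Fos had 6590 and 8726 CPM in cold and 2095 and 1343 CPM at room temperature, a log2 fold change of 2.21 (SE 0.35, edgeR adjusted p = 0.00930). Jun had 135 and 34 UMIs in cold and 1 and 6 at room temperature, or 2379, 1561, 49.9 and 322 CPM. Its log2 fold change was 3.50 (SE 0.61, edgeR adjusted p = 0.0115), and 2.85 and 5.33 when room-temperature replicates 1 and 2 were left out in turn. In the 80 barcodes Jun had 1737, 2377, 2043 and 252 CPM, with up to 113 UMIs in 1 barcode, and the groups overlapped. Of the fits run, Jun passed only in those that left out the mixed or the deepest barcodes. Jun was seen in 26 of 34 and 8 of 13 cold cells but in 1 of 15 and 1 of 9 cells at room temperature, so its 6 UMIs in replicate 2 came from 1 cell. At 800 UMIs per cell its expected shares were 64.1%, 47.8%, 4.70% and 6.12%. In macrophage-gated cells Jun had 2374, 2467, 1532 and 998 CPM, and Fos had 2099, 2330, 1962 and 1708 CPM.

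A pair of negative regulators changed in the same direction. Dusp1 had 8880 and 7532 CPM in cold and 2693 and 1880 CPM at room temperature, a log2 fold change of 1.91 (SE 0.32, edgeR adjusted p = 0.0115). Zfp36, which encodes tristetraprolin, a protein that speeds the decay of cytokine mRNAs, had 4053 and 4455 CPM in cold and 1297 and 537 CPM at room temperature. Its log2 fold change was 2.26 (SE 0.41, edgeR adjusted p = 0.0127), and 3.22 and 1.84 without room-temperature replicates 1 and 2. For both genes all cold libraries stood above all room-temperature libraries. Macrophage-gated cells had 2880, 3711, 2367 and 2070 CPM of Dusp1 and 1623, 2020, 1760 and 1500 CPM of Zfp36.

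Hmox1 had 42 and 13 UMIs in cold and 1 and 1 at room temperature, or 740, 597, 49.9 and 53.7 CPM. The ratio of summed UMIs was 13.5 (exact 95% interval 3.58 to 115, counting error only), and the log2 fold change was 3.68 (SE 0.71, edgeR adjusted p = 0.0188). It was seen in 23 of 34 and 7 of 13 cold cells and in 1 of 15 and 1 of 9 cells at room temperature. Lrg1, a glycoprotein stored in neutrophil granules, had 83 and 31 UMIs in cold and 1 and 7 at room temperature, a log2 fold change of 2.84 (SE 0.61, edgeR adjusted p = 0.0264). With 1 library left out it ran from 2.17 to 4.87, the values without room-temperature replicates 1 and 2. By cells the groups overlapped, with a Lrg1 UMI in 29 of 34 (85.3%) and 6 of 13 (46.2%) in cold and in 1 of 15 (6.67%) and 5 of 9 (55.6%) at room temperature. Lrg1 was near absent from macrophage-gated cells, at 2.37 to 10.2 CPM. The luminal epithelial list of the 71 neutrophils had 493 and 367 CPM in cold and 200 and 107 CPM at room temperature. The part of other cells' RNA in the Lrg1 difference was not tested.

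Of the genes that fell, Ifrd1, a transcriptional co-regulator, had 33 and 9 UMIs at room temperature and 2 and 3 in cold. The log2 fold change was −3.84 (SE 0.81, edgeR adjusted p = 0.0264), and −2.78 and −4.63 without cold replicates 1 and 2. The room-temperature libraries were themselves far apart, at 1646 and 483 CPM. Psap, the precursor of the lysosomal saposins, had 370 and 505 CPM in cold and 1397 and 1665 CPM at room temperature, a log2 fold change of −1.78 (SE 0.42, edgeR adjusted p = 0.0483). The shares of cells with a Psap UMI overlapped, at 41.2% and 76.9% in cold and 73.3% and 88.9% at room temperature. Psap had 3120 to 4322 CPM in macrophage-gated cells and 1095 CPM in all other filtered cells. The macrophage marker sum of the neutrophils was highest in room-temperature replicate 2, where most of it came from the cell of 6412 UMIs. The part of other cells' RNA in this difference was not tested.

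**Figure D3:**
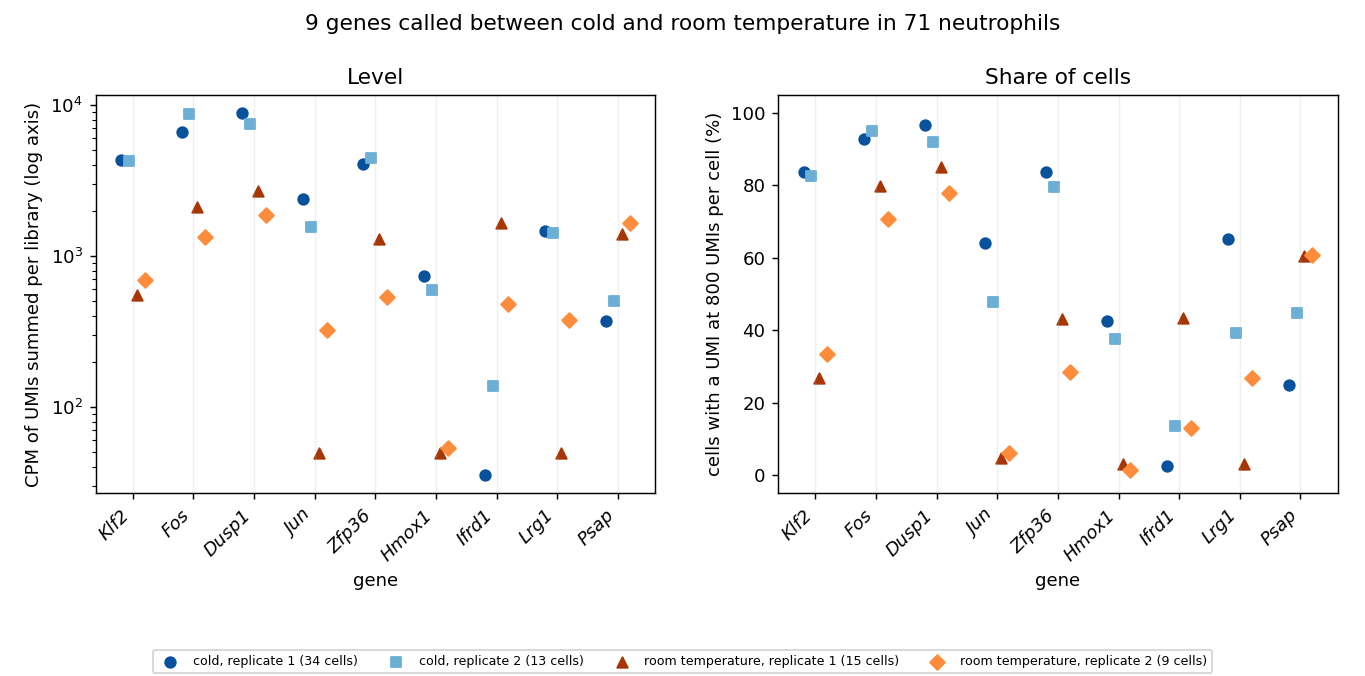
Left, level (CPM of UMIs summed per library, log axis) and right, expected share of cells with a UMI at 800 UMIs per cell (percent) of 9 of the 10 genes called in the 71 neutrophils, by library. Klf2 lies at 4334 and 4271 CPM in cold and at 549 and 698 CPM at room temperature, while the Ifrd1 shares of cold replicate 2 and room-temperature replicate 2 are level, at 13.5% and 13.2%.

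Klf2, Fos, Dusp1, Jun and Zfp36 passed in each of the 9 fits made without the 9 mixed barcodes, including those that left out 1 library each. Those fits set 2 libraries against 1 and assume that the lone library varies like the other group, and their counts of calls ran from 7 to 57. Hmox1 and Psap did not pass without cold replicate 1 or without cold replicate 2, and Ifrd1 did not pass without cold replicate 1 and was too low to test without room-temperature replicate 1. With DESeq2 Hmox1, Lrg1 and Psap did not pass. Without the cell of 6412 UMIs, 31 genes passed, 8 of the 10 among them, with Psap at an edgeR adjusted p of 0.0877 and Ifrd1 not tested. Jun then had a log2 fold change of 5.95. All of these genes were chosen as calls of the main fit without the mixed barcodes, and the other fits are variants of it. Their passes are therefore not independent of that choice.

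Promoter sequence is shown for Fos and Dusp1, the called genes whose windows held more than 1 copy of TGACG, the core of the cAMP-response and ATF element. The windows are the 250 bases before the RefSeq start site, on GRCm38.p6, printed 5′ to 3′ on the gene's strand with TGACG and TGACGTCA in capitals. Fos lies at chr12:85473640-85473889 on the plus strand and Dusp1 at chr17:26508473-26508722 on the minus strand. The Dusp1 window lies inside the GENCODE gene span given above, which on this strand begins at 26562128, so the RefSeq and GENCODE starts differ.
Fos: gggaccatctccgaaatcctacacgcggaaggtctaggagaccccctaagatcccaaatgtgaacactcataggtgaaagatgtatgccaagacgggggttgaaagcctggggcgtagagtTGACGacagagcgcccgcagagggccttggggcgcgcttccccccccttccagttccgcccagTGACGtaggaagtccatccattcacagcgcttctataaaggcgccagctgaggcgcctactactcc
Dusp1: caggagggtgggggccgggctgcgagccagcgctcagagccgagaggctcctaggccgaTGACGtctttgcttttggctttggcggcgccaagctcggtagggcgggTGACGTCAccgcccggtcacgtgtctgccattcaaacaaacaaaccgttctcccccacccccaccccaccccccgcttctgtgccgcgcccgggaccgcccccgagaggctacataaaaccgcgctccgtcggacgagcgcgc
In Fos the 2 copies begin 129 and 66 bases before the start. In Dusp1 a copy begins 191 bases before the start, and the full palindrome TGACGTCA, which holds TGACG on both strands, begins 143 bases before it. On either strand TGACG was found in 4 of the 8 called genes with a RefSeq window (Klf2, Fos, Dusp1 and Ifrd1), and TGACGTCA in Dusp1 alone. Of all 32851 RefSeq windows of this length, 17.8% held TGACG and 1.55% held TGACGTCA. A match of letters is a description of the window and no evidence of binding. Hmox1 is named only.

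Of the immediate early list (genes induced within minutes by stimuli, tissue dissociation among them), 16 of 21 were tested in the 71 neutrophils. Fos, Jun, Dusp1 and Zfp36 rose (4 of 16, against 2.27% of all genes tested), none fell, and 12 had a fold change above 0, against 167 of 352 genes. The list's median log2 fold change was 1.35, against −0.048 over all genes tested, and its values ran from −1.29 to 3.50. Socs3, a feedback inhibitor of cytokine signalling, had 1181, 1240, 150 and 430 CPM (2.13 on the log2 scale, SE 0.52, edgeR adjusted p = 0.0502). Egr1 had 1498, 873, 399 and 322 CPM and Junb 8299, 8634, 4539 and 2739 CPM, neither of which passed. Fosb (−1.29) and Fosl2 (−1.17) lay on the other side without passing. In the 80 barcodes the median was 0.69 and none of the 16 passed. The libraries were digested with collagenase at warm temperature, and the sources used here do not give the time from dissection to capture. Cold exposure and handling of the cold libraries therefore cannot be told apart, for these or any other genes compared here.

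The glucocorticoid response list had 5 tested members, of which Dusp1 and Zfp36, both also on the immediate early list, rose (2 of 5, against 2.27% of all genes tested). Tsc22d3, the glucocorticoid-induced leucine zipper, had 828, 873, 299 and 537 CPM without passing (1.09 on the log2 scale, SE 0.51, edgeR adjusted p = 0.300). Of 10 tested myeloid transcription factors only Klf2 passed, where 2.83% of all genes tested did. Klf6 had 1533, 1791, 698 and 215 CPM (edgeR adjusted p = 0.0635), and Cebpb, the factor of emergency granulopoiesis, had 4705, 3628, 7282 and 7574 CPM (edgeR adjusted p = 0.205).

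Pattern recognition genes had the lowest median of the lists with at least 4 tested members. Of 7 tested in the 71 cells 0 passed and 5 had both cold libraries below both of the others, as 25.6% of all genes tested had, with a median of −1.06 on the log2 scale. Trem1, an amplifier of innate signals, had 617, 643, 2045 and 1880 CPM (−1.57, SE 0.38, edgeR adjusted p = 0.0502). Cd14, the lipopolysaccharide co-receptor, had 564, 643, 1646 and 1987 CPM (−1.53, SE 0.39, edgeR adjusted p = 0.0566). The lectins Clec4e and Clec4d and the inflammasome sensor Nlrp3 had fold changes of −1.06, −0.68 and −1.20. The other 2, the immunoglobulin-like receptors Pirb and Lilr4b, lay above 0, at 0.63 each, and neither passed. In the 80 barcodes the median was −0.30. The 4 tested NF-κB targets (Tnfaip3, Nfkbia, Tnfaip2 and Nfkbiz) had a median of −0.85, and none passed. Slc16a3, the lactate exporter, had 282, 184, 1147 and 1021 CPM (−2.05, SE 0.50, edgeR adjusted p = 0.0502).

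**Figure D4:**
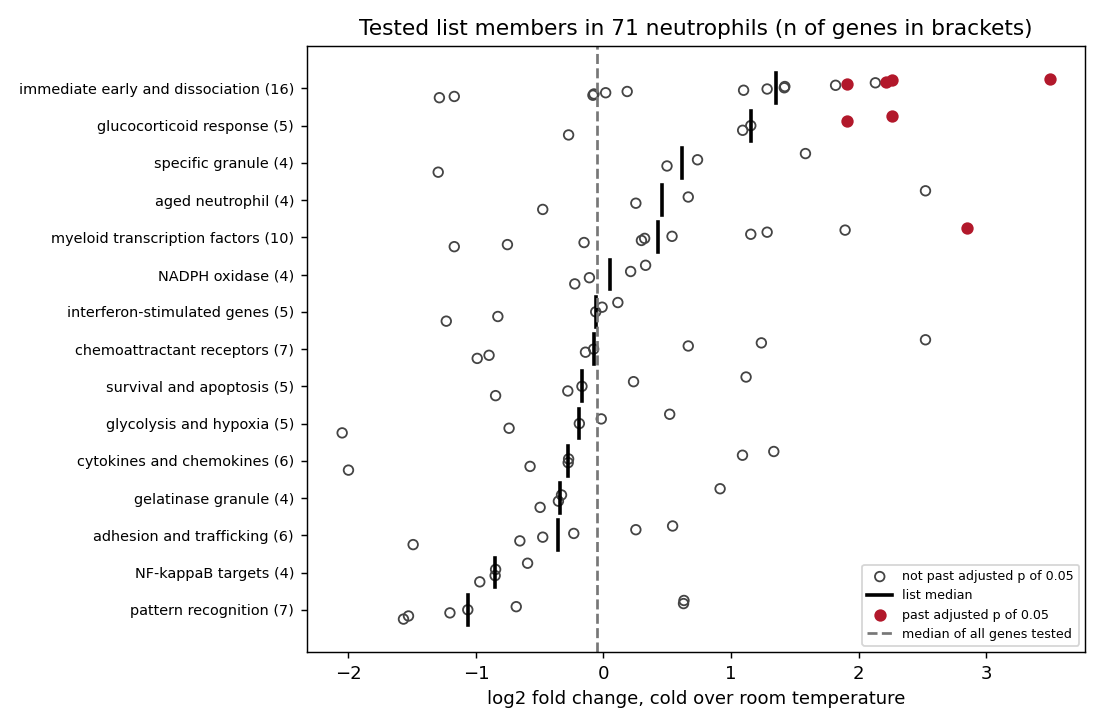
Log2 fold change, cold over room temperature, of the tested members of each list with at least 4 tested genes in the 71 neutrophils; filled points passed an edgeR adjusted p of 0.05 and bars are list medians. The immediate early list has the highest median, 1.35, and pattern recognition the lowest, −1.06, with the median of all genes at −0.048.

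The granule, trafficking and cytokine lists gave no call, which at a share of 2.83% over all genes tested is near the background for lists this short. Lrg1, called above and stored in neutrophil granules, is on none of these lists. In the 71 cells 0 of 4 specific granule, 0 of 4 gelatinase granule, 0 of 7 chemoattractant receptor, 0 of 6 adhesion, 0 of 6 cytokine and 0 of 4 NADPH oxidase genes passed. Cxcr4, the marrow-retention receptor, had 652, 827, 199 and 53.7 CPM (2.53 on the log2 scale, SE 0.66, edgeR adjusted p = 0.0620). Osm, the cytokine oncostatin M, had 1815, 1516, 798 and 591 CPM (1.34, SE 0.40, edgeR adjusted p = 0.0892), and Il1rn, the interleukin-1 receptor antagonist, had 141, 276, 598 and 1021 CPM (−2.00, SE 0.58, edgeR adjusted p = 0.0856). Il1b had a fold change of −0.58 on the log2 scale (SE 0.29, edgeR adjusted p = 0.360).

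Genes tied to cold and to its hormones were sparse. The cold-inducible RNA-binding genes Cirbp and Rbm3 had 70.5, 91.8, 49.9 and 107 CPM and 211, 138, 249 and 215 CPM in the 71 cells, too few for the test. The adrenergic receptor genes Adrb1 and Adrb3 had 0 UMIs. Fkbp5, a glucocorticoid target, had 123, 230, 99.8 and 0 CPM, Ddit4 had 0 UMIs, and Per1, a clock gene, had 211, 367, 549 and 430 CPM. In the 80 barcodes Rbm3 (−0.66), Per1 (0.041), Tsc22d3 (1.43), Mmp8 (1.56) and Mmp9 (0.048) were tested on the log2 scale and did not pass.

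Whether cold differences in neutrophils differed from those in monocytes, the nearest circulating myeloid cells, could be tested only weakly. Monocyte-gated cells (Ly6c2 with Csf1r or Ccr2 and little C1q) numbered 4, 5, 14 and 18, and cold replicate 1, under the minimum of 5, was dropped. In the edgeR interaction test 0 of 1471 genes passed (0.0%), with 108 at an unadjusted p under 0.05 and a smallest adjusted p of 0.104. With no low-count filter 6 of 11787 passed (0.0509%). With the 80 barcodes the interaction was 4.33 for Hmox1 on the log2 scale (SE 1.20, edgeR adjusted p = 0.257) and 3.08 for Cxcr4 (SE 1.07, edgeR adjusted p = 0.438). Macrophage-gated cells, 397, 213, 1048 and 404 in number, allowed all 4 libraries. Against them the 80 barcodes gave 1 gene of 9119 (0.011%), Col3a1, and the 71 neutrophils gave 1 gene of 8329 (0.012%), Socs3, with 89.3, 62.1, 102 and 150 CPM in macrophage-gated cells. The interactions of Klf2 (2.56, SE 0.69, edgeR adjusted p = 0.515), Jun (2.87, SE 0.84, edgeR adjusted p = 0.685) and Fos (2.28, SE 0.71, edgeR adjusted p = 0.832) did not pass, so a difference between neutrophils and macrophages was not shown for them.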

How the data were processed

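Single-cell RNA was measured in 4 libraries, 2 per temperature. The authors deposited unnormalized UMI counts for each barcode, made with Cell Ranger 3.0.2 per the submitters' processing notes, which also name Seurat, mm10 and GRCm38. No source used here gives the annotation release. The members and gene lists were chosen with earlier results of these data known. Doublets were scored but kept. Counts were summed per library (35198164 to 55160902 UMIs over all barcodes) and tested with edgeR 4.0.16 (TMM, filterByExpr, quasi-likelihood) in R 4.3.3, with Benjamini-Hochberg adjustment and a threshold of 0.05. DESeq2 1.42.0 was an alternative. The tests were also run on simulated library sums, drawn from average levels with a dispersion shared by all genes. That setting leaves out deep mixed barcodes in particular libraries, so it does not vouch for the calls given here. Cell shares at 800 UMIs are hypergeometric expectations, with no cell left out. Named profile genes were the rule genes and the 20 highest by level and by ratio (at least 200 CPM, detected in 25%). For cold, since fewer than 10 genes passed in the 80, the 8 of smallest p each way without overlap were taken; the 10 calls and the next 12 in the 71 cells were added after their values were seen, as was the split into 80 and 71. Genes also named for a role come from the lists. Promoters (RefSeq, GRCm38.p6) were matched by symbol for 8 of 10 genes. A few genes are not reported here.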

Additional observations from a re-analysis of the deposited data

Results flagged for a closer look

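Socs3 differed in its cold effect between the 71 neutrophils and macrophage-gated cells, by 3.26 on the log2 scale (SE 0.72, edgeR interaction test with library as a block, adjusted p = 0.0429). Both cold libraries lay above both room-temperature libraries in neutrophils (1181, 1240, 150 and 430 CPM), whereas macrophage-gated cells had 89.3, 62.1, 102 and 150 CPM. In the 80 barcodes Socs3 had 657, 993, 718 and 252 CPM, with overlapping groups, and the interaction did not pass.

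Col3a1 differed in the same test with the 80 barcodes, by −4.46 on the log2 scale (SE 0.93, edgeR adjusted p = 0.0147). Its 1, 5, 328 and 258 UMIs in the 80 barcodes came down to 1, 0, 6 and 0 in the 71 neutrophils, where it was too low to test. Col3a1 was among the genes used to set the mixed barcodes aside, so this fall was fixed by the split. Macrophage-gated cells had 72.0, 22.7, 357 and 125 CPM. Both comparisons were chosen after the monocyte-gated cells proved few.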

How the results depend on the processing

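The ratio of neutrophil shares was 2.02 to 2.26 under 6 other filters and denominators and 1.45 to 2.61 with 1 library left out. The count of genes called by cold in the 80 barcodes (0) was 0 with RLE scaling, a looser cell filter, at least 50 UMIs of S100a8 and S100a9, high doublet scores removed or the rule genes left out. It was 6 with DESeq2, 47 with no low-count filter, 10 without the 9 mixed barcodes and 19 without barcodes over 3 times the median UMIs. Leaving out 1 library gave 0 to 97 calls in the 80 barcodes (34 and 97 without cold replicates 1 and 2, 0 and 3 without those at room temperature) and 7 to 57 in the 71 neutrophils (12, 7, 57 and 32). The 71 neutrophils gave 6 calls with DESeq2, 20 with RLE scaling and 31 without cells over 3 times the median UMIs. With the replicate number as a block there were 0 calls in the 80 barcodes and 27 in the 71. Same-numbered libraries deviated together at r = 0.481 in the 80 barcodes and −0.009 in the 71, and the numbers only number the libraries. The interaction count of 0 was 6 with no filter, 1 with macrophage-gated cells, and 1 with those and the 71 neutrophils; it was 0 with RLE scaling, with the 71 neutrophils and with all 4 libraries. Neither leaving out a library (no residual degrees of freedom) nor a stricter monocyte gate (1, 2, 8 and 12 cells) could be fitted. The cause of these moves was not tested.

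Over 38 named genes and 723 alternatives, 513 kept direction and side and 185 passed where the 80 barcodes had not. The named genes include those of smallest p in the 71 neutrophils, and many alternatives were variants of that fit. Passes there were largely fixed by the choice of genes, so the 185 is no measure of robustness. The remaining 25 changed sign, in 5 genes that passed in none of the fits where the sign changed. On the log2 scale, Mmp9 went to −0.012 (block), −0.50 (without the mixed barcodes), −0.69 (without large barcodes), −0.69 (without both), and, without the mixed barcodes, −0.52 (DESeq2), −0.45 (block) and −0.53 (RLE). With 1 library left out it ran from −0.30 to 0.42 in the 80 (−0.045 without room-temperature replicate 2) and −0.32, −0.50 and −0.85 in the 71. Per1 went to −0.096 (at least 50 S100 UMIs), −0.98 (without large barcodes) and −0.92 (without both). With 1 library left out it ran from −0.23 to 0.45 in the 80 (−0.096 without room-temperature replicate 1) and −0.27, −1.04 and −0.89 in the 71. Il1b went to 0.079 with the looser cell filter. With 1 library left out Il1b ran from −0.50 to 0.32 (0.083 without cold replicate 1), Egr1 from −0.088 to 2.12 and Atf3 from −0.42 to 1.12 in the 80. Depth limits the low genes: 1 UMI in a room-temperature sum of the 71 neutrophils is about 50 CPM.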
